A study of Mus musculus with 11 samples.

Results

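The genes described here are 9 secreted regulators of bone morphogenetic protein (BMP) signalling, namely the ligands Bmp2, Bmp4, Bmp6, Bmp7, Gdf10 and Gdf6 and the BMP-binding proteins Grem1, Fstl1 and Bmper. They were taken by gene symbol from a table of 55513 genes, each with exactly 1 row, and were chosen with earlier results of these data known. The samples were hearts of 11 female C57BL/6J mice at an age of 8 weeks, taken on day 3 after the operation for RNA sequencing. Permanent ligation of the left anterior descending coronary artery (LAD), which causes a myocardial infarction (MI), was done in 8 mice. An osmotic minipump delivered either GI254023X, an inhibitor of the metalloprotease ADAM10, at 100 mg/kg (A10i, n = 4) or its solvent (DMSO, n = 4). The other 3 mice were sham-operated and also received DMSO (Sham). Infarct and border zone were sampled together after MI, whereas sham mice gave healthy heart tissue, so the ligation and the sampled region cannot be told apart. No group carried a genetic change, and all 3 groups had received DMSO as solvent or alone.

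BMP ligands are secreted dimers of the TGF-beta superfamily. Typical BMP ligands bind pairs of type I and type II serine/threonine kinase receptors, which phosphorylate SMAD1, SMAD5 and SMAD9. These SMADs enter the nucleus with SMAD4 and switch on genes such as Id1, Id2 and Id3. Secreted proteins that bind the ligands set how much of them reaches the receptors. In the heart, the pathway is known for its part in the formation of valves, septa and outflow tract, and in the adult it acts on endothelial cells, fibroblasts and cardiomyocytes.

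The counts per library lay between 21702659 and 29511782 over the 11 libraries, and the values below are normalized counts, that is counts brought to a common library size with TMM factors. Differences were tested with edgeR's two-sided quasi-likelihood F-test, and p-values were adjusted by Benjamini-Hochberg over all genes tested and called under 0.01. Standard errors (SE) belong to log2 fold changes. Cardiomyocyte markers, among them Myh6, were abundant in every library. The DMSO mouse A129 lay far from the other mice of its group in Bmp2 and Grem1, and it had the highest value of the group in 5 of the 9 genes. Values without it are given beside the results that rest on it. In the same mouse the summed markers of fibroblasts, endothelial cells, macrophages, neutrophils and atrial tissue were the highest of the DMSO group. Those of cardiomyocytes and of smooth muscle and pericytes were the lowest.

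In the mouse genome (GRCm38, the assembly also called mm10), Gdf10 lies at chr14:33923587-33937983 on the plus strand and Bmper at chr9:23223076-23485200 on the plus strand. Bmp6 (chr13:38345107-38500302, plus), Gdf6 (chr4:9844372-9862345, plus) and Fstl1 (chr16:37776873-37836514, plus) lie on other chromosomes. Bmp4 lies at chr14:46383520-46390669 on the minus strand. Bmp2 (chr2:133552159-133562885, plus), Bmp7 (chr2:172868012-172940321, minus) and Grem1 (chr2:113746164-113758646, minus) share a chromosome but do not neighbour each other. Exons of Bmp6 share 224 bases with Txndc5 on the opposite strand, which had 26126 counts over the 11 libraries, and since the strand setting of the counting is not given, part of the Bmp6 counts could not be assigned with certainty. Bmp4 shares 89 bases with Gm15217, which had 1 count.

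RefSeq promoter sequences (GRCm38.p6) were at hand for 6 of the 9 genes. The 250 bases before the start site are printed for Gdf10, a ligand that fell in DMSO mice, and Bmper, a BMP-binding protein that rose in DMSO and A10i mice, each against sham. The start sites of both genes are the same in RefSeq and in the annotation of the counts. Capitals mark CAGAC, the SMAD-binding element, which was searched on both strands together with GGCGCC, a GC-rich element of the BMP-activated SMADs.

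Gdf10, chr14:33923337-33923586, plus strand: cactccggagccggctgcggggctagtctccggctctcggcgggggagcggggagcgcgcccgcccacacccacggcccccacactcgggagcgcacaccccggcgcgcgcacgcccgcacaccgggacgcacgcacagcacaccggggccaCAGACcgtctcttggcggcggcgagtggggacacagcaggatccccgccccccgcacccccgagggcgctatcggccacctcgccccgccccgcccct
Bmper, chr9:23222826-23223075, plus strand: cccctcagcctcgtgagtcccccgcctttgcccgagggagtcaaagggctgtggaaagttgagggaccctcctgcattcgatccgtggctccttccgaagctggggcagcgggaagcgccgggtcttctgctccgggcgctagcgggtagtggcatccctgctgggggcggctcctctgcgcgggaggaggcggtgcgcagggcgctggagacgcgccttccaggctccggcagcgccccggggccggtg

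The Gdf10 window held 1 CAGAC and 0 GGCGCC, and the Bmper window held 0 of either. Among the windows not printed, that of Bmp6 held 1 CAGAC and 0 GGCGCC and that of Grem1 held 1 of each. Those of Bmp4 and Fstl1, which fell and rose in their means after MI, held 0 of either. Of 32851 windows of the same length over all genes, 42.2% held CAGAC and 9.59% held GGCGCC, so a CAGAC in a window is common. The G and C content of the Gdf10 window was 78.8%, at or above that of 98.4% of all windows, and that of the Bmper window was 71.6%, against a median of 52.4%.

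Levels of different genes were compared per kilobase (kb) of exon. In sham mice Fstl1 had the highest level, 602 ± 39.3 normalized counts per kb (SD, n = 3). Bmp6 followed with 266 ± 3.31 and Bmp4 with 127.2 ± 12.5 per kb, so the main ligand transcripts of the healthy heart were Bmp6 and Bmp4. Bmper had 28.1 ± 0.860, Gdf10 19.3 ± 1.16, Bmp7 14.1 ± 3.11, Bmp2 10.6 ± 1.06 and Gdf6 6.16 ± 2.02 per kb, and Grem1 0.0890 ± 0.154. Neighbours in this order had separate ranges over the 3 mice, except Bmp7 and Bmp2, whose ranges overlapped.

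After MI the order changed below the 4 highest genes, which stayed Fstl1, Bmp6, Bmp4 and Bmper in this order of means. Gdf6 moved from the eighth place in sham to the fifth in both MI groups, with 43.0 ± 21.6 per kb in DMSO and 39.9 ± 13.8 in A10i mice (SD, n = 4 each). In DMSO mice Gdf10 had the lowest mean of the 9 genes, 5.75 ± 1.36 per kb, with a range that overlapped that of Bmp7. The Grem1 mean of that group, 6.08 per kb, rests on A129 with 23.7, since the other 3 DMSO mice had 0, 0.207 and 0.410 per kb of Grem1 and 7.24, 3.95 and 6.04 of Gdf10, so without A129 Grem1 was the lowest. In A10i mice Gdf10 had 13.0 ± 2.63 per kb and its range overlapped those of its neighbours Bmp2 and Bmp7. The ranges of Bmper, Gdf6 and Bmp2 overlapped from neighbour to neighbour in both MI groups, and that of Bmp4 overlapped with Bmper in DMSO mice. Fstl1 held 54.0 to 58.0% of the summed per-kb level of the 9 genes in sham mice, 77.1 to 85.0% in DMSO mice and 78.2 to 88.0% in A10i mice, so the share was higher in each of the 8 mice with MI than in any sham mouse.

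**Figure D1:**
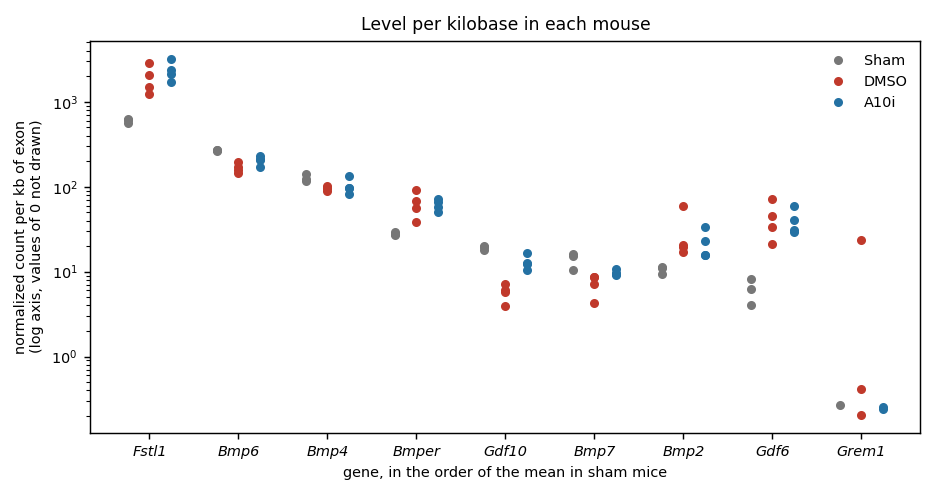
Normalized counts per kb of exon (log axis) of the 9 genes, 1 point per mouse, in Sham (grey), DMSO (red) and A10i (blue) mice, with genes in the order of their sham mean and values of 0 not drawn. Fstl1 is the highest gene in every mouse, Gdf6 lies higher in both MI groups than in sham, and Grem1 has a single high point, from 1 DMSO mouse.

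Of the 9 genes, 8 passed the expression filter in each comparison and Grem1 did not. Between DMSO and Sham, 3 of the 9 rose (Gdf6, Fstl1 and Bmper), against 12.9% of all 17119 genes tested, and 2 fell (Gdf10 and Bmp6), against 9.6%. Between A10i and Sham, the same 3 genes rose, against 13.8% of 17004 genes, and 0 fell, against 9.09%. With scaling by library size alone, the counts of the 9 genes were the same, while over all genes 3330 were higher and 708 lower in DMSO mice, in place of 2214 and 1643, and 3435 and 576 in A10i mice, in place of 2339 and 1546. The median log2 fold change of the 8 genes was 0.38 in either comparison, beside 0.0022 and -0.0056 over all genes tested. In each comparison 4 of the 8 values were positive and 4 negative, so this median falls in a gap and shows no common shift. The gap lay between Bmper (1.17) and Bmp4 (-0.40) in DMSO mice, and between Bmp2 (1.06) and Bmp4 (-0.31) in A10i mice. The MI group and the sham group did not overlap in 4 genes on the higher and 4 on the lower side in DMSO mice, against 25.1% and 23.6% of all genes, and in 4 and 2 genes in A10i mice, against 24.7% and 23.5%. Both comparisons use the same 3 sham mice and are therefore given side by side. In bulk tissue, fewer cells of a type and less RNA per cell cannot be told apart.

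Gdf10, also called BMP3B, is an atypical ligand of the BMP3 subgroup. Its normalized counts were 103, 105.2 and 93.8 in the sham mice, 37.7, 20.6, 31.5 and 30.1 in the DMSO mice and 54.7, 87.0, 66.5 and 63.2 in the A10i mice. The 3 groups did not overlap, with sham highest, A10i between and DMSO lowest. The DMSO mean was 29.8% of the sham mean, a fall by 1.75 on the log2 scale (SE 0.22, edgeR adjusted p = 0.000426), and the call held when any of the 7 mice was left out. The A10i mean was 67.4% of the sham mean, with a log2 fold change of -0.56 (SE 0.18, edgeR adjusted p = 0.0314), which did not pass.

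Bmp6, a ligand that endothelial cells make and that controls iron uptake through the liver, had normalized counts of 1022.9, 1044.2 and 1046.2 in the sham mice. The DMSO mice had 674, 569.9, 770.5 and 611 and the A10i mice 668, 903, 835 and 800.2, so every mouse with MI lay below every sham mouse. In the DMSO group Bmp6 fell to 63.3% of sham, by 0.66 on the log2 scale (SE 0.10, edgeR adjusted p = 0.00121), with the call held when any of the 7 mice was left out. In the A10i group it was at 77.2% of sham with a log2 fold change of -0.37 (SE 0.09, edgeR adjusted p = 0.0106). This value lay next to the threshold, and it was under it without A116 (0.00385), without A117 (0.00483), with DESeq2 (0.00412) and with no filter on low counts (0.000959).

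Bmp4 and Bmp7 did not pass in either comparison with sham, except that Bmp7 passed between DMSO and Sham in the edgeR fit of all 11 libraries (adjusted p = 0.00858). Bmp4, a ligand needed for mesoderm and outflow tract formation, had 261, 280.2 and 316 normalized counts in sham, 220.0, 231, 218 and 198 in DMSO and 185, 219, 214 and 305 in A10i mice. The DMSO mice all lay below the sham mice (log2 fold change -0.40, SE 0.11, edgeR adjusted p = 0.0171), and the A10i mice overlapped with them (-0.31, SE 0.16, adjusted p = 0.148). Bmp7, a ligand known for kidney and eye development, had 65.3, 62.2 and 42.3 in sham, 34.5, 35.1, 17.0 and 29.1 in DMSO and 38.5, 37.6, 36.9 and 43.7 in A10i mice. Again the DMSO mice lay below the sham mice (-0.97, SE 0.29, edgeR adjusted p = 0.0222), while 1 A10i mouse, A120, lay above the lowest sham mouse (-0.53, SE 0.21, adjusted p = 0.0690).

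**Figure D2:**
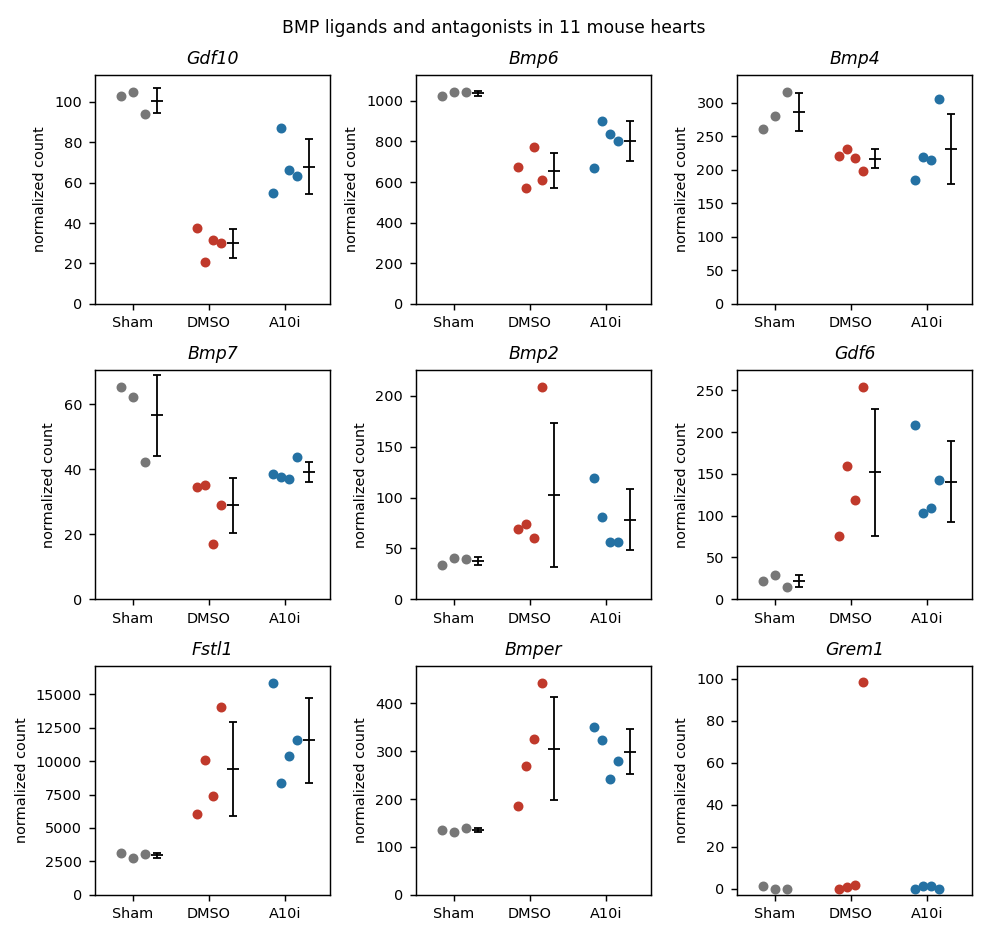
Normalized counts of each of the 9 genes, 1 point per mouse, with mean and SD beside the points (Sham n = 3, DMSO n = 4, A10i n = 4, and no mean for Grem1). Gdf10 and Bmp6 lie lower and Gdf6, Fstl1 and Bmper higher in every mouse with MI than in every sham mouse, and 1 DMSO mouse holds the top Bmp2 and Grem1 values.

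Gdf6 and Bmp2 were the ligands with higher values after MI. Gdf6, also called BMP13 and known for the patterning of joints and skeleton, had 22.1, 28.7 and 14.4 normalized counts in sham mice. It had 75.5, 159, 118 and 254 in DMSO mice and 209, 103, 109 and 143 in A10i mice, and neither MI group overlapped with sham. The rise was 6.91-fold in DMSO mice (log2 fold change 2.79, SE 0.45, edgeR adjusted p = 0.00171) and 6.43-fold in A10i mice (2.68, SE 0.33, adjusted p = 0.00041). Without A129 the DMSO value was 2.43 (edgeR adjusted p = 0.000605), and the call was lost without S1 (0.0110) or without S3 (0.0115).

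Bmp2, a ligand that acts on endothelial cells and bone precursors, had 33.2, 40.2 and 39.2 normalized counts in sham mice. The DMSO mice had 69.0, 73.7, 60.4 and 209, the last in A129, and the A10i mice 120, 81.1, 55.9 and 56.3. All mice with MI lay above all sham mice, but the spread among them was wide and the test was not passed in DMSO (log2 fold change 1.45, SE 0.46, edgeR adjusted p = 0.0338) or A10i mice (1.06, SE 0.29, adjusted p = 0.0152). Without A129 the DMSO value was 0.84, smaller by over 1.5 times, with an edgeR adjusted p of 0.0105. DESeq2 gave adjusted p-values under the threshold in both (0.00336 and 0.00476), where that tool called 26.7% and 24.6% of all genes. In A10i mice edgeR also passed Bmp2 with no filter on low counts (adjusted p = 0.0012) and without A119 (0.00955).

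Among the BMP-binding proteins, Fstl1 and Bmper rose. Fstl1, a secreted follistatin-like glycoprotein made by stromal cells that can bind BMP4, had 3115, 2743 and 3018 normalized counts in sham, 6036, 10108, 7393 and 14038 in DMSO and 15876, 8355, 10387 and 11574 in A10i mice. No mouse with MI overlapped with sham. The rise was 3.17-fold in DMSO mice (log2 fold change 1.66, SE 0.27, edgeR adjusted p = 0.0018) and 3.91-fold in A10i mice (1.97, SE 0.20, adjusted p = 0.000306). Without A129 the DMSO value was 1.404 (edgeR adjusted p = 0.000618). The DMSO call was lost when S1, S2 or S3 was left out, with adjusted p-values of 0.0105, 0.0120 and 0.0114, and with no filter on low counts (0.0167).

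Bmper, the vertebrate crossveinless-2, binds BMPs outside the cell and acts for or against them depending on its amount. Its normalized counts were 135, 132 and 140.2 in sham, 187, 268, 325 and 444 in DMSO and 351, 323, 243 and 281 in A10i mice, again without overlap of the MI groups with sham. It rose 2.25-fold in DMSO mice (log2 fold change 1.17, SE 0.26, edgeR adjusted p = 0.00744) and 2.21-fold in A10i mice (1.15, SE 0.14, adjusted p = 0.000363). The A10i call held when any of the 7 mice was left out. The DMSO call was close to the threshold and was lost without A127, A128, S1, S2 or S3 (adjusted p from 0.0124 to 0.0338), with limma-voom (0.0143) and with no filter (0.0115), while it held without A129 (log2 fold change 0.94, adjusted p = 0.00442).

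Grem1, a secreted antagonist that sequesters BMP2, BMP4 and BMP7, was almost absent from 10 of the 11 libraries. It had 1, 0 and 0 counts in the sham mice, 0, 1, 2 and 98 in the DMSO mice and 0, 1, 1 and 0 in the A10i mice. The 98 counts were in A129, with an exact Poisson 95% interval of 79.6 to 119.4 that covers counting error only, and a count of 0 allows up to 3 counts as a one-sided limit. The group means follow this 1 mouse, and no fold change is given. The neighbouring genes did not stand out in A129 in the same way. Fmn1 had 101 to 215 normalized counts over the DMSO mice, with the highest value in A129, and 107 to 203 over the A10i mice, Arhgap11a had 100.3 to 362, also highest in A129, and 199 to 408, and Scg5 had 0 to 4 counts in any library.

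Between A10i and DMSO mice, 0 of the 9 genes passed, as did 0 of all 16793 genes tested (percent called 0), and the smallest adjusted p over all genes was 0.0480. This holds for edgeR. At the same threshold DESeq2 called 231 of 17519 genes (1.32%), and the paper, which used DESeq2 with IHW, reports genes called in both directions for this comparison. At an unadjusted p under 0.05, 2 of the 9 genes were higher in A10i, Gdf10 and Bmp6, against 7.1% of all genes in that direction, and 0 were lower, against 6.73%. The ranges of Gdf10 and Bmp7 lay fully above DMSO in A10i mice, 2 of 9 against 4.01% of all genes, 0 lay fully below, against 4.11%, and those of the others overlapped. The median log2 fold change of the 8 genes tested was 0.19, beside 0.0034 over all genes.

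Gdf10 showed the largest difference of the 8, 67.9 ± 13.7 normalized counts in A10i against 29.97 ± 7.09 in DMSO mice (SD, n = 4 each). It was 2.28-fold higher with a log2 fold change of 1.19 (95% interval 0.67 to 1.71, edgeR adjusted p = 0.0883 over all genes), and each A10i mouse had more than each DMSO mouse. DESeq2 called it, with an adjusted p of 0.00155, in a comparison where that tool called 1.32% of genes, and the edgeR adjusted p was 0.0220 with no filter and 0.0225 in a fit of all 11 libraries. On leaving out 1 of the 8 mice at a time, the log2 fold change lay between 1.04 and 1.31, with edgeR adjusted p-values from 0.0664 to 0.252.

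For the other 7 genes the interval of the difference gives what the data leave room for. Bmp6 had a log2 fold change of 0.29 (95% interval 0.02 to 0.56, edgeR adjusted p = 0.326) and Bmp7 one of 0.44 (-0.10 to 0.99, adjusted p = 0.466). Bmp4 had 0.09 (-0.25 to 0.43), Fstl1 0.30 (-0.31 to 0.91) and Bmper -0.03 (-0.55 to 0.49), with edgeR adjusted p-values of 0.837, 0.679 and 0.9747. The widest intervals were those of Bmp2, -0.39 (-1.34 to 0.56, edgeR adjusted p = 0.744), and Gdf6, -0.11 (-0.90 to 0.69, adjusted p = 0.929), and both include 0. Without A129 the sign turned in Bmp2 (0.21), Gdf6 (0.25) and Bmper (0.20). Grem1 did not pass the filter, and without the filter its edgeR adjusted p was 0.626, with 0.333 between DMSO and Sham and 0.879 between A10i and Sham.

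**Figure D3:**
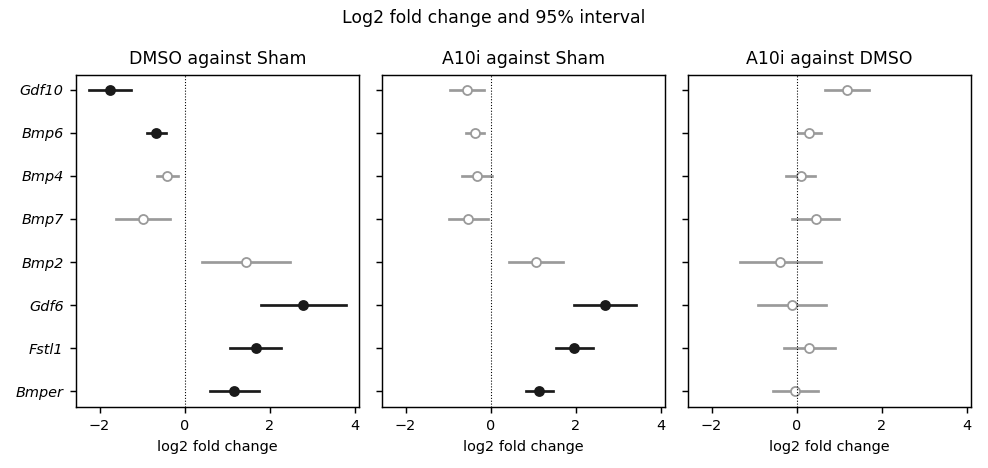
Log2 fold change (points) with 95% interval (lines) of the 8 genes tested, in the 3 comparisons, where filled black points mark an adjusted p under 0.01. Gdf6, Fstl1 and Bmper are filled on the right in both comparisons with sham, Gdf10 and Bmp6 are filled on the left between DMSO and Sham only, and 0 points are filled between A10i and DMSO, where Gdf10 is farthest to the right.

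The other genes of the pathway were taken from 5 lists with 66 genes in all, of which 51 were tested in the comparisons with sham and 50 between the MI groups. Between DMSO and Sham 11 rose and 5 fell, 31.4% of those tested against 22.5% of all genes, and between A10i and Sham 12 rose and 3 fell, 29.4% against 22.8%. Between A10i and DMSO 0 passed and 13 were under an unadjusted p of 0.05, where 7.1% of all genes were so on the higher and 6.73% on the lower side. Counts of single lists are to be read against the shares of all genes called, 12.9% higher and 9.6% lower in DMSO and 13.8% and 9.09% in A10i mice. Between A10i and DMSO, DESeq2 called 1 gene of the lists, Gdf15.

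Of the other BMP and GDF ligands, 5 of 15 were tested, and 1 rose in DMSO and 2 in A10i mice. Gdf15, a stress-induced member of the family that signals through its own receptor in the brainstem, rose from 23.7 to 411 normalized counts in DMSO mice (log2 fold change 4.10, SE 0.49) and to 134 in A10i mice (2.50, SE 0.29). Between A10i and DMSO its log2 fold change was -1.61 (SE 0.38, edgeR adjusted p = 0.129, DESeq2 adjusted p = 0.00126), opposite in sign to that of Gdf10. Gdf3 rose in A10i mice, from 2.04 to 23.0 normalized counts (3.42, SE 0.55, edgeR adjusted p = 0.0012). The DMSO mean was close to that, 20.3 (3.21, SE 0.94, edgeR adjusted p = 0.0243), and the log2 fold change between A10i and DMSO was 0.21 (adjusted p = 0.916). Bmp5, a close relative of Bmp6 and Bmp7, had 31.4 normalized counts in sham mice, 18.8 after MI with DMSO and 30.9 after MI with A10i and passed in neither comparison.

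Of the other secreted modulators, 15 of 20 were tested against sham, with 3 higher and 1 lower in DMSO and 4 higher and 1 lower in A10i mice, beside 22.5% and 22.8% of all genes in either direction. Tsku, a small proteoglycan that binds BMPs, rose in both (log2 fold change 2.48 in DMSO and 2.08 in A10i mice), as did Fstl3, a follistatin-like inhibitor of activins (2.63 and 1.89). Fst, follistatin, also rose in both (2.35, SE 0.44, and 1.87, SE 0.33), and Bmp1, the protease that cleaves the antagonist chordin and procollagens, rose in A10i mice (0.94, SE 0.13), with 0.82 in DMSO mice (edgeR adjusted p = 0.0135). Kcp, a chordin-like enhancer of BMP signalling, fell by 0.92 in DMSO mice, with -0.43 in A10i mice (edgeR adjusted p = 0.0460). Dand5, a DAN-family antagonist, fell by 0.50 in A10i mice, with -0.67 in DMSO mice (adjusted p = 0.0147). Chordin itself (Chrd) had 138 normalized counts in sham mice, 90.6 after MI with DMSO and 142 after MI with A10i and did not pass.

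All 12 receptors and co-receptors were tested against sham, with 0 higher and 3 lower in DMSO and 1 higher and 2 lower in A10i mice. Acvr2b, a type II receptor, fell by 1.06 and 0.73 on the log2 scale in DMSO and A10i mice, and the co-receptor Rgma fell by 0.90 and 0.42. Hjv, the muscle and liver co-receptor hemojuvelin, fell by 0.56 in DMSO mice, with -0.23 in A10i mice (edgeR adjusted p = 0.0793). Acvrl1, the endothelial type I receptor ALK1, rose in A10i mice (0.31, SE 0.07), with nearly the same value in DMSO mice (0.30, SE 0.11, adjusted p = 0.0509). The type I receptor Bmpr1a had log2 fold changes of -0.20 and -0.21 and the type II receptor Bmpr2 0.15 and 0.01, none of them past the threshold. Of the 8 SMAD and SMURF genes, 1 rose and 1 fell in DMSO mice and 1 rose in A10i mice. Smad7, an inhibitory SMAD, rose by 0.94 and 0.58, and Smad9, one of the BMP-activated SMADs, fell by 1.10 in DMSO mice, with -0.76 in A10i mice (edgeR adjusted p = 0.0159).

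Of 14 BMP target genes, 7 rose and 0 fell in DMSO mice and 5 rose and 0 fell in A10i mice, beside 12.9% and 13.8% of all genes higher. Smad6, Smad7 and Bambi of this list also stand in another of the lists. The inhibitors of differentiation Id1, Id2 and Id3 are classical direct targets. Id1 had 645 to 695 normalized counts in sham, 826 to 1176.7 in DMSO and 674 to 959.5 in A10i mice, and rose in DMSO mice (log2 fold change 0.53, SE 0.12, edgeR adjusted p = 0.00832) but did not pass in A10i mice (0.30, SE 0.11, adjusted p = 0.0469). Id2 (124 to 166 in sham, 303 to 502 in DMSO and 270.2 to 383 in A10i mice) and Id3 (829 to 871, 991 to 1546 and 1221 to 1478) rose in both. Between A10i and DMSO their log2 fold changes were -0.23, -0.21 and 0.09, and none passed (edgeR adjusted p = 0.494, 0.654 and 0.815). Runx2, a transcription factor of bone formation, rose in both (1.84, SE 0.30, and 1.72, SE 0.35). Several of these targets, Smad7 among them, also answer to TGF-beta.

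**Figure D4:**
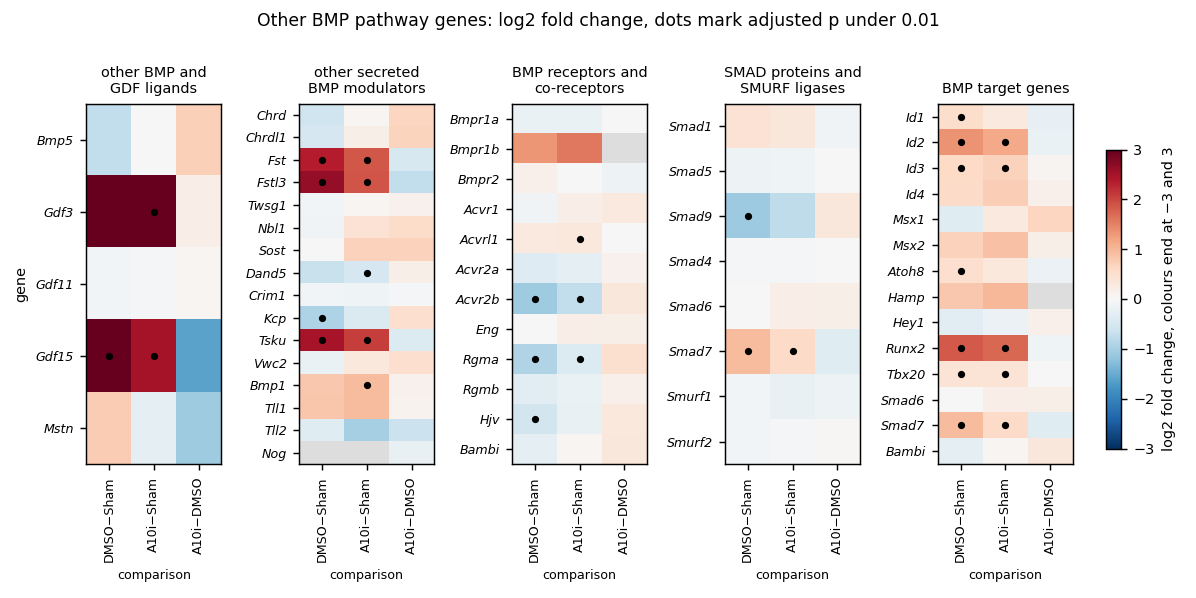
Log2 fold changes of the tested genes of 5 pathway lists (rows) in the 3 comparisons (columns), red for higher and blue for lower in the first-named group, grey where a gene was not tested, and dots for an adjusted p under 0.01. Dots stand in both columns against Sham, 16 in DMSO and 15 in A10i mice when a gene in more than 1 list is counted once, and 0 stand in the A10i and DMSO column.

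Markers of several cell types also differed between the groups. Counts of markers called are to be read against the shares of all genes called. These were 12.9% higher and 9.6% lower in DMSO and 13.8% and 9.09% in A10i mice, each against sham. The summed fibroblast markers (8 genes, 0 of them at 0 in any library) were 29573 to 31348 normalized counts in sham, 47291 to 151126 in DMSO and 117714 to 207666 in A10i mice. In DMSO mice 3 of the 8 rose, the collagen genes Col1a1, Col1a2 and Col3a1. These had the highest means of the list in both MI groups, so the sums weigh collagen transcripts most. Pdgfra, Dcn, Lum, Tcf21 and Ddr2 had log2 fold changes of 0.58, 0.22, 0.28, 0.10 and 0.10 in DMSO mice, none past the threshold. In A10i mice 6 of the 8 rose, the collagen genes and Pdgfra, Dcn and Lum (0.43, 0.58 and 0.72). The summed activated fibroblast markers (6 genes) were 3805 to 4835 in sham, 8673 to 25246 in DMSO and 14634 to 40217 in A10i mice. Of these genes 3 and 4 of 6 were higher, while Acta2 and Fap passed in neither comparison. A129 in DMSO and A116 in A10i mice had the highest fibroblast sums of their groups, and also the highest Fstl1, Gdf6, Bmper and Bmp2 values. A105 had the lowest sum of the DMSO mice and their lowest Fstl1, Gdf6 and Bmper values. In A10i mice A117 had the lowest fibroblast sum, with the lowest Fstl1 and Gdf6 values but more Bmper and Bmp2 than A119 and A120. Other sums also had their extremes in these mice. A116 had the highest macrophage, neutrophil and atrial sums of the A10i mice. Its cardiomyocyte, epicardial, and smooth muscle and pericyte sums were the lowest of that group. A105 had the lowest macrophage and endothelial sums of the DMSO mice and their highest cardiomyocyte sum. A105 and A117 also had the highest summed red blood cell transcripts of their groups, 94700 and 128439 normalized counts. The other DMSO mice had 5933 to 24276, the other A10i mice 26802 to 35484 and the sham mice 15116 to 33145. The summed cardiomyocyte markers (8 genes) were 1939070 to 1975980 in sham, 903613 to 1370240 in DMSO and 1106020 to 1514690 in A10i mice, with 4 and 3 of 8 lower. The summed endothelial markers (8 genes) were 26257 to 27438, 22132 to 25876 and 25531 to 28355, with 2 and 1 of 8 lower. In A10i mice the endothelial sums thus reached below and above the sham range. The smooth muscle and pericyte markers (6 genes) were 36482 to 38619, 17132 to 23311 and 21013 to 27080, with 3 of 6 lower in both MI groups and 1 higher in A10i mice. Macrophage markers (8 genes) were 8126 to 8861 in sham, 13442 to 23298 in DMSO and 17658 to 33909 in A10i mice, with 6 and 8 of 8 higher. Neutrophil markers (8 genes, 2 or 3 of them at 0 in each sham library) were 28.7 to 54.2, 1867 to 3748 and 361 to 1292, with 7 of the 7 tested higher in both. Epicardial and mesothelial markers (6 genes) were 786 to 1195, 1093 to 1704 and 1504 to 2791, with 2 of 6 higher in both. Atrial markers (5 genes, 1 of them at 0 in 10 libraries) were 676 to 1180.2, 734 to 2484 and 1421 to 2745, with 0 and 1 of the 4 tested higher. The part of these shifts in the values of the 9 genes was not tested.

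Genes with the most similar pattern over the 11 libraries were found by the root mean square difference of log2 CPM, each gene centred on its mean, over 17494 genes. Fstl1 was closest to Col8a1, a short-chain collagen (0.0884), and Panx1 (0.124), against a spread of Fstl1 itself of 0.868. Gdf6 was closest to Mmp14, a membrane-bound matrix metalloprotease (0.229), and Bcat1 (0.234), against a spread of 1.25. Bmper was closest to Galnt16 (0.116) and Sod3, the extracellular superoxide dismutase (0.130), against 0.575. Gdf10 was closest to Kbtbd13 (0.294) and 6430571L13Rik (0.299), at a distance that was a larger share of its own spread of 0.740.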

How the data were processed

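Heart RNA of 4 A10i, 4 DMSO and 3 Sham mice was sequenced, 1 library per mouse. Poly(A) RNA was enriched and strand-specific libraries were made. According to the methods and the submitters' processing notes, the authors demultiplexed with bcl2fastq 2.20.0, aligned to mm10 with GSNAP and used featureCounts 2.0.1 to count, per Ensembl gene, the reads with a unique alignment. The strand setting of the counting is not given in the sources used here. The deposited values are these raw counts, whole numbers without normalization, for 55513 genes, of which 55154 had a symbol.

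From the counts, edgeR 4.0.16 (R 4.3.3) was run on the libraries of each pair of groups, with filterByExpr, TMM and the robust quasi-likelihood F-test. The methods of the study call for DESeq2 with a threshold of 0.01, and that threshold was kept. Intervals use the residual plus the median prior degrees of freedom. DESeq2 1.42.0, limma-voom (limma 3.58.1), other normalizations and filters, a joint fit of the 11 libraries, a looser threshold (0.05) and leaving out libraries one by one were the alternatives. The scripts were tested on simulated data. The log2 CPM values used a prior count of 2.

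All 9 genes were named, and from each pathway list and comparison up to 3 higher and 3 lower genes past the threshold with the smallest adjusted p-values, and Id1, Id2 and Id3. Chrd, Bmp5, Bmpr1a and Bmpr2 were named after their values were seen. The likeness rule took the 2 closest genes for each of the 9 that passed in any comparison. The result for Bmp6 is not reported here. The 9 genes and the lists were chosen with earlier results of these data known. The labels give each library its own mouse number, so p-values measure the spread between mice. The depth of 21702659 to 29511782 counts limits the precision for genes with few counts, such as Grem1.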

Additional observations from a re-analysis of the deposited data

Results flagged for a closer look

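A sample far from the others was found in 2 of 18 groups of 4 mice tested (9 genes in DMSO and A10i mice). The rule was Dixon's ratio of gap to range. For normally distributed values, chance alone flags about 1 in 20 groups by it. That rate was not checked for these counts, some of which are near 0. Both flagged samples were the DMSO mouse A129. For Bmp2 it had 209 normalized counts against 60.4 to 73.7 in the other 3 DMSO mice. For Grem1 it had 98.4 normalized counts against 0 to 1.70 in the others. Mitochondrial transcripts held 14.8% of the counts of this library, the lowest share of the 11.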

How the results depend on the processing

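The directions of the 8 genes tested against sham were the same under all alternatives run. Scaling by library size alone moved the median log2 fold change of all genes to 0.21 between DMSO and Sham and to 0.18 between A10i and Sham. Of the log2 fold changes of single genes under the alternatives, 329 kept direction and side of the threshold, 16 newly passed, 13 no longer passed and 10 changed sign, all 10 between A10i and DMSO. The looser threshold of 0.05 reused the p-values of the main fit. What newly passed there therefore had a main adjusted p between 0.01 and 0.05 and no changed value. Genes higher in DMSO than Sham numbered 1 in place of 3 with no filter, and 0 to 3 with 1 mouse left out (0 without S1, 1 without S2 and 0 without S3, where 2 sham mice remained). Genes lower there numbered 4 in place of 2 at a threshold of 0.05. The other pathway genes called there numbered 6 to 16 with 1 mouse left out, in place of 16 (6 without S1, 7 without S2 and 7 without S3). Between A10i and Sham, genes lower numbered 1 with DESeq2, 1 with no filter and 2 at 0.05, in place of 0, and 0 to 1 with 1 mouse left out (1 without A116 and 1 without A117). The pathway genes called numbered 24 at 0.05 in place of 15, and 8 to 18 with 1 mouse left out (8 without any 1 of the sham mice). Between A10i and DMSO, DESeq2 called 1 of the 9 genes (Gdf10) and 1 other pathway gene (Gdf15), and edgeR 0 of either. Bmper changed sign with limma-voom (0.024), and with 1 mouse left out the ranges were -0.20 to 0.20 for Bmper, -0.36 to 0.25 for Gdf6, -0.071 to 0.19 for Bmp4 and -0.66 to 0.21 for Bmp2. The cause of these changes was not tested. No paired analysis was possible because the labels give the groups no shared replicate numbers. Depth limits Grem1, with 0 to 2 counts in 10 libraries.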

Other observations

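Genes with at least 30 normalized counts in 1 library and at least 10 times the value of every other library were counted over the whole table, after the Grem1 counts had been seen. A129 had 2 such genes, Grem1 (98.4 against at most 1.70 elsewhere) and Gm49017 (44.2 against at most 4.29). The DMSO mouse A105 had 1, Alb, which encodes serum albumin (47.4 against 0), and the sham mouse S2 had 1, Prph, which encodes the neuronal filament peripherin (203 against at most 8.25). The other 8 libraries had 0.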
